A study of Homo sapiens with 54 samples.

Results

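Differentiated H1 was compared with H1 kept for 4 days without FGF, to describe which pluripotency and lineage genes differ between early exit after FGF removal and differentiation in embryoid bodies. The samples were taken by their titles: 1 culture labelled as differentiated in vitro and 3 cultures with no FGF additive, which are 8 of the 54 arrays and 4 of the 27 cultures of the series. The differentiated culture had lower signals for 15 of 18 genes of the undifferentiated state, POU5F1 and NANOG among them, and for the homeobox genes DLX5, DLX6, SIX3 and RAX. It had higher signals for all 14 collagen and matrix genes, for 15 of 16 genes for proteins that yolk sac and liver secrete, for 12 of 16 genes of amnion and trophoblast, and for 17 of 38 HOX genes. Over 20411 genes with a probe, 14.4% were called higher and 11.1% lower in the differentiated culture. Here called means an adjusted p under 0.05 in the limma fit, and in these mixed cells fewer cells of a type and less RNA in each cell cannot be told apart.

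H1 is a human embryonic stem cell (ESC) line. The study asked whether FGFC, a chimera of FGF1 and FGF2, can stand in for basic FGF (bFGF) in human pluripotent stem cell culture, and it measured RNA on 1-colour Agilent arrays, each culture on 2 arrays. The no FGF cultures were grown for 4 days in Essential 6 Medium with 2 ng/mL of TGF-beta 1 and no FGF, at passages 49, 59 and 51 by their titles in experiments 1, 2 and 3. Cultures in the same medium with 100 ng/mL of bFGF, 1 in each experiment, served as the undifferentiated reference. For the differentiated culture, H1 colonies formed embryoid bodies for 8 days in a HydroCell dish, in DMEM-F12 with KnockOut Serum Replacement. They then grew for 11 days attached to gelatin, without an FGF additive, and no TGF-beta 1 is stated for that medium. The passage of the differentiated culture is blank in the labels. The study states that these H1 cells had been kept in E8 Medium beforehand, which as described there contains bFGF. As described, they did not pass through 4 days without FGF. Below, the first step runs from bFGF to no FGF and the second from no FGF to differentiated, as an order of groups and not of time. The differentiated sample is 1 culture of mixed cells in another medium and format, and its arrays were alone on a slide of their own. Medium, time, format, slide and differentiation cannot be told apart.

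Signals are given as log2 of the spot intensity minus the 75th percentile of the array, so that 0 is the 75th percentile and 1 unit is a 2-fold difference. Differences are the differentiated culture minus the mean of the 3 no FGF cultures, ± the standard error of the limma fit. The fit held 13 H1 cultures in 5 groups, and the lone differentiated culture was assumed to vary like the other groups. The 4-day cultures of an experiment share a passage, and where a fit with the experiment as a block changes a call, its value is given too. Between 59.6% and 66.5% of probes were well above background on the no FGF arrays, 66.1% to 72.8% on the bFGF arrays and 66.3% and 69.1% on the differentiated arrays. The correlation across probes was 0.983 between the differentiated arrays, 0.983 to 0.989 between no FGF cultures, and 0.925 to 0.936 between the differentiated culture and each no FGF culture. Of 42405 probes, 8587 (20.2%) were called, 4208 higher and 4379 lower, and 11327 (26.7%) differed 2-fold or more on the means. The median difference over all probes was -0.32, which is the difference of a typical probe. Of the 2-fold differences 53.2% were lower, against 41.2% when a probe had to exceed background on all arrays of the differentiated or of the no FGF cultures.

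**Figure D1:**
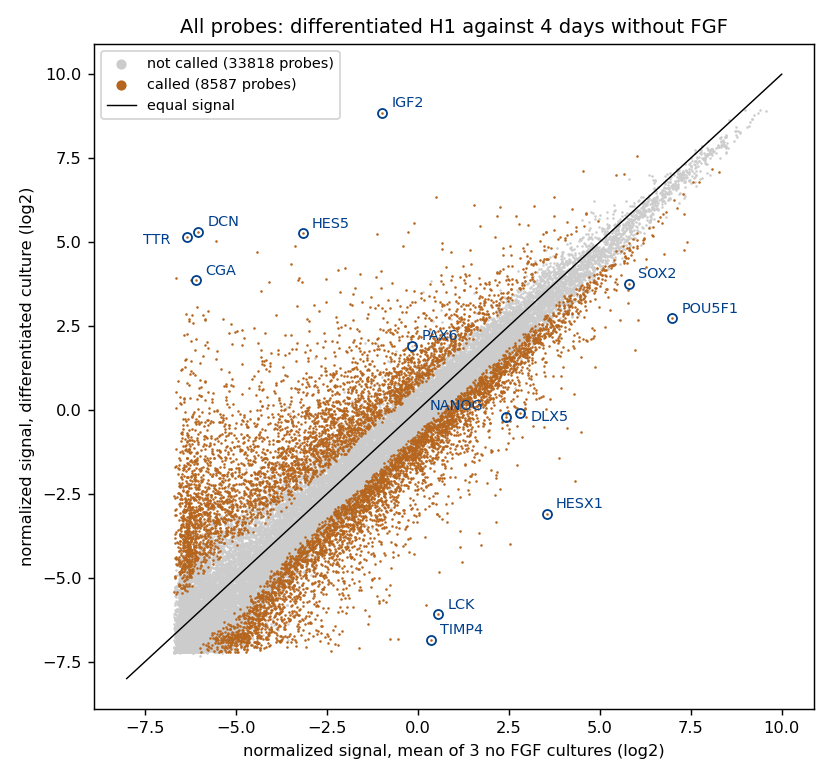
Normalized signal (log2) of each of 42405 probes, mean of the 3 no FGF cultures on the horizontal axis and the differentiated culture on the vertical axis, with the 8587 called probes in orange and the line of equal signal in black. TTR, DCN, CGA and IGF2 lie far above the line and POU5F1, HESX1, LCK and TIMP4 far below it, while SOX2 stays well above 0 on both axes.

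No FGF experiment 1 stood apart for neuroectoderm genes. The median signal of 16 such genes was -2.73 in experiment 1 and 0.77 and 0.46 in experiments 2 and 3, and 12 of the 16 were lowest in experiment 1. Its medians were the highest for 3 other lists. In experiments 1, 2 and 3 these were 3.36, 2.92 and 2.99 for 18 core pluripotency genes and 2.82, 1.78 and 2.07 for 11 BMP genes. For 8 DLX and MSX genes they were -2.20, -2.75 and -2.70. With experiment 1 left out, 15 of 18 pluripotency genes were called lower, and 15 of 16 yolk sac and liver, 14 of 16 amnion and trophoblast, 13 of 14 matrix and 17 of 38 HOX genes higher. Other results that turn on it are given without it too. The duplicates of the differentiated culture stood apart for a few genes: array 1 was above array 2 by 1.34 for POU5F1, 1.59 for TDGF1, 1.496 for NODAL and 2.22 for GDF3. These genes, chosen after their values were seen, differed by at most 0.44 between the duplicates of the other 26 cultures. Both arrays of the differentiated culture are given for each of them.

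Pluripotent cells are held undifferentiated by a network of transcription factors around Oct-4, Nanog and Sox2, and human ESCs need FGF signalling through ERK together with Activin or Nodal signalling to keep it running. When FGF is withdrawn the network weakens and cells begin to differentiate, often towards ectoderm, whose neural or surface fate BMP signalling sets. In embryoid bodies, cells aggregate without added factors and give rise to derivatives of ectoderm, mesoderm and endoderm side by side, often with an outer layer that resembles the visceral endoderm of the yolk sac.

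Promoter sequences of 3 genes are shown because they hold a motif searched in both lists. AFP, of the yolk sac and liver genes, rose in the differentiated culture, and NANOG and SOX2, of the pluripotency genes, fell. Each is a RefSeq window on GRCh38.p14, from 250 bases before the start to 50 after it, on the + strand, at chr4:73435971-73436270 (AFP), chr12:7789152-7789451 (NANOG) and chr3:181711675-181711974 (SOX2). Capitals mark TATAAA, the core of the TATA box, in AFP, and TTTGCAT, the core of the octamer that Oct-4 reads, or its reverse complement ATGCAAA in the last 2.
AFP: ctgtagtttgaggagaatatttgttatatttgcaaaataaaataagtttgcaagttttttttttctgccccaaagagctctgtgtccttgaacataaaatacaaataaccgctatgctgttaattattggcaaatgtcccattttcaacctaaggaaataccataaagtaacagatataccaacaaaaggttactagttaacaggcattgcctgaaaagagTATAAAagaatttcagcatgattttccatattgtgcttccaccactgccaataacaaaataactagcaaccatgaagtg
NANOG: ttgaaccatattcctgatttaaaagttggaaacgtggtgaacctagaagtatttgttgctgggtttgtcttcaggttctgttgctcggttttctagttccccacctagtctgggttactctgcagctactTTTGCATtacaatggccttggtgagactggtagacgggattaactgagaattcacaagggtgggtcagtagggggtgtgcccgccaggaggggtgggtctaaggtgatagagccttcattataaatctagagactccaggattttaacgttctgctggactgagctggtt
SOX2: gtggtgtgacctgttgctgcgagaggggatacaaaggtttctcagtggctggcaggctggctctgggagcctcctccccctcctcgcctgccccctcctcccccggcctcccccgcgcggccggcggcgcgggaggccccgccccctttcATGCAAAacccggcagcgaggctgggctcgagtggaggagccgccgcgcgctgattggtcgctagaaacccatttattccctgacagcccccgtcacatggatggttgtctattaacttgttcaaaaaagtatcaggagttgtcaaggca
The TATAAA match began at base -29 from the start of AFP, and the octamer match at -120 of NANOG and -100 of SOX2. Both strands were searched, in 1 window per gene. TATAAA was in 2 of 12 windows of yolk sac and liver genes (AFP and RBP4), in 1 of 12 of pluripotency genes (NANOG, where it stands in lower case above) and in 11.5% of 35116 windows of all genes. The octamer core was in 0 of the 12 yolk sac and liver windows, in 2 of the 12 pluripotency windows (NANOG and SOX2) and in 4.46% of all windows. CCAAT was in 6 of 12 windows of each list and in 34.6% of all. A match of letters is no binding site, and no binding was measured.

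Genes of the undifferentiated state were lower in the differentiated culture than without FGF. Of 18 core genes, 15 were called lower, 1 higher and 2 neither, and their median difference was -2.77, against -0.18 over all genes. POU5F1, which encodes Oct-4, had signals of 7.46, 6.83 and 6.70 in the no FGF cultures and 3.41 and 2.06 on the differentiated arrays. The groups did not overlap, and the 2 differentiated arrays were further apart than the 3 no FGF cultures. The difference was -4.26 ± 0.32 (adjusted p = 8.1e-06), and it was -3.61 on the first arrays alone and -4.92 on the second. A second POU5F1 probe differed by -4.64. Against bFGF, POU5F1 was lower by 1.08 without FGF (adjusted p = 0.0086, limma).

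NANOG, the homeobox factor of the network, gave 2.79, 2.45 and 2.02 without FGF and -0.03 and -0.41 after differentiation, a difference of -2.64 ± 0.35 (adjusted p = 0.00037). With bFGF it gave 4.11, 4.17 and 4.12, so that its values stepped down from bFGF to no FGF, a difference of -1.71 (adjusted p = 0.00096), and again to the differentiated culture. The contrast with bFGF uses the same no FGF cultures, so the 2 contrasts are not independent. In that contrast 8.07% of all genes were called higher without FGF and 8.77% lower. TDGF1, the Nodal co-receptor Cripto, took a larger first step down than NANOG: 5.43, 5.59 and 5.39 with bFGF, 1.98, 2.55 and 1.93 without FGF and -1.25 and -2.83 on the differentiated arrays.

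Other genes of the network were not called between bFGF and 4 days without FGF and were low after differentiation. DNMT3B, a de novo DNA methyltransferase, had 5.86, 6.16 and 5.89 with bFGF, 6.21, 5.88 and 5.85 without FGF and 1.88 and 1.70 when differentiated. Its no FGF and bFGF cultures overlapped, and the difference from no FGF to differentiated was -4.19 ± 0.29 (adjusted p = 5.6e-06, limma). LIN28A, an RNA-binding inhibitor of let-7 maturation, gave 4.30, 4.29 and 4.24 without FGF and 0.58 and 0.38 when differentiated, and its difference from bFGF was 0.58 (adjusted p = 0.070). The Rex1 gene ZFP42 differed by -2.37 ± 0.36, USP44 by -3.93 ± 0.43 and DPPA4 by -3.03 ± 0.30. PRDM14, a repressor of differentiation genes, was not well above background on either differentiated array and was at least 18.9-fold lower.

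Some factors of the network were higher without FGF than with bFGF and low when differentiated. SOX2, which neural progenitors use as well, had 4.48, 4.63 and 4.36 with bFGF, 5.96, 5.75 and 5.72 without FGF and 3.71 and 3.82 when differentiated. The differentiated arrays lay below both other groups, yet well above background. SOX2 rose by 1.32 without FGF (adjusted p = 0.00036), and the difference from no FGF to differentiated was -2.04 ± 0.23 (adjusted p = 0.00014). SALL4, a zinc finger partner of Oct-4, differed by 0.82 between bFGF and no FGF and by -2.22 ± 0.23 between no FGF and differentiated, both called. FOXD3 was the 1 gene called higher, with 0.60, 0.92 and 0.64 under bFGF, -2.55, -1.96 and -3.25 without FGF and -0.38 and -0.26 when differentiated. This factor also specifies neural crest, and its differentiated value lay between the other groups (2.27 ± 0.42, adjusted p = 0.0030). DPPA2, a chromatin-associated partner of DPPA4, had fallen by 2.65 without FGF against bFGF and was not called between no FGF and differentiated (-0.73 ± 0.40, adjusted p = 0.23). With the experiment as a block its difference was -1.07 and called (adjusted p = 0.033).

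**Figure D2:**
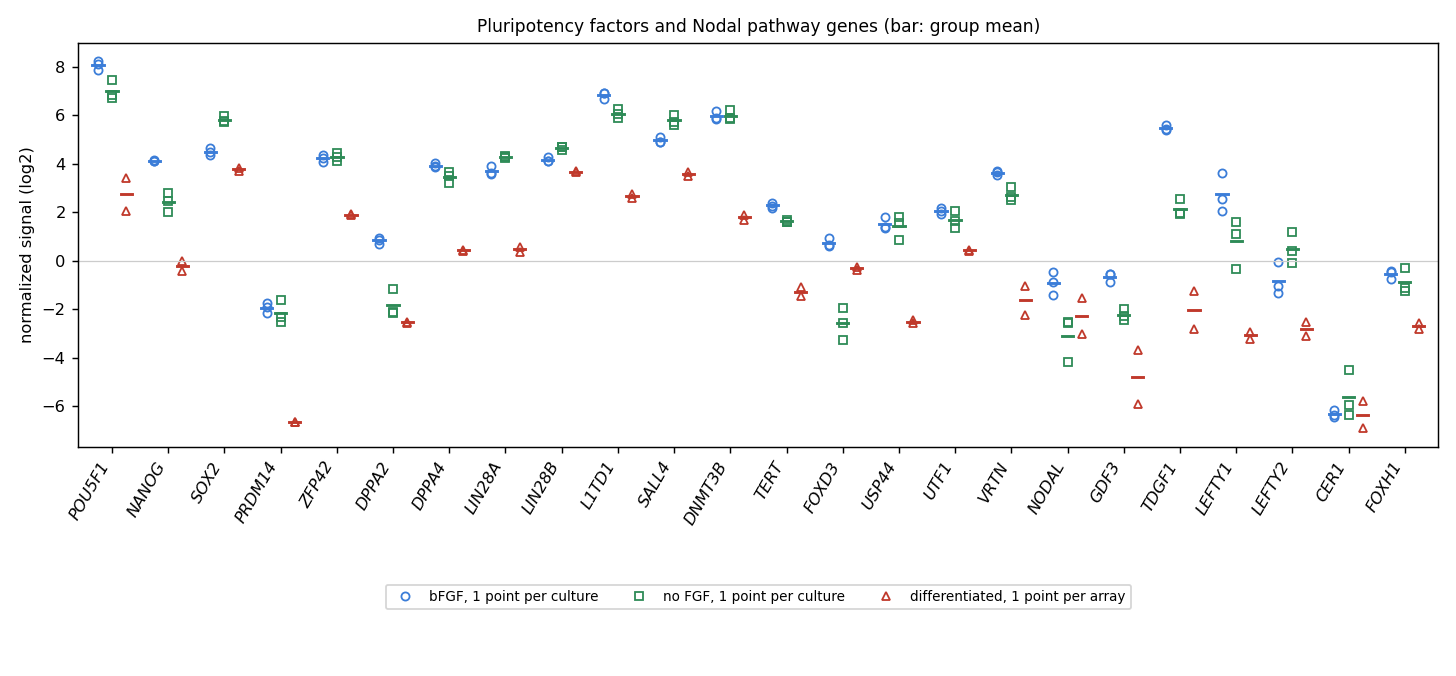
Normalized signal (log2) of 17 pluripotency and 7 Nodal pathway genes, with 1 point per culture for bFGF (circles) and no FGF (squares), 1 point per array for the differentiated culture (triangles), and bars at the group means. POU5F1, NANOG and TDGF1 are lower at both steps and DNMT3B and LIN28A only at the second step. SOX2 and SALL4 are highest without FGF and lowest when differentiated. The steps are an order of groups and not of time.

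Nodal signalling genes were mostly low as well, with 5 of 8 called lower, 1 higher and 2 neither. The no FGF medium held TGF-beta 1 and none is stated for the differentiated culture, so for these genes too medium and differentiation cannot be told apart. LEFTY1 and LEFTY2, secreted inhibitors that Nodal itself induces, differed by -3.88 ± 0.80 and -3.31 ± 0.67 (adjusted p = 0.0060 and 0.0051). FOXH1, the SMAD2 partner, differed by -1.81 ± 0.34. GDF3, a ligand of the family, had -1.99, -2.46 and -2.26 without FGF and -3.68 and -5.90 on the differentiated arrays, of which only 1 was well above background. Its difference of -2.55 ± 0.23 was -1.45 on the first arrays alone and -3.66 on the second, called in each case. The ligand NODAL had -2.59, -2.54 and -4.19 without FGF and -1.53 and -3.02 on the differentiated arrays, which overlap (adjusted p = 0.42).

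DLX and MSX homeobox genes, which pattern non-neural ectoderm and later the face, limbs and forebrain interneurons, went both ways, with 3 of 8 called higher in the differentiated culture, 2 lower and 3 neither. DLX5 was not well above background on any bFGF array, had 3.08, 2.57 and 2.77 in the no FGF cultures, and -0.28 and 0.08 on the differentiated arrays. It was at least 387-fold higher without FGF than with bFGF (adjusted p = 1.2e-07), and differentiated cells held an intermediate level, -2.91 ± 0.48 from no FGF (adjusted p = 0.0016). Its neighbour DLX6 had the same order, with 2.05, 1.12 and 1.84 without FGF and -1.77 and -1.23 when differentiated (at least 176-fold over bFGF, then -3.17 ± 0.51). MSX1 did the reverse. It had -4.34, -5.23 and -4.20 with bFGF, -4.18, -2.59 and -3.18 without FGF and 1.96 and 2.06 when differentiated, so that no FGF was not called against bFGF (adjusted p = 0.13) and the differentiated culture was 5.32 ± 0.69 above no FGF (adjusted p = 0.00032).

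DLX2, which works with DLX1 in interneuron precursors, differed by 3.60 ± 0.73 (adjusted p = 0.0052) and DLX1 by 2.45 ± 0.67 (adjusted p = 0.024, and 0.057 without experiment 2). The second DLX1 probe differed by -0.73 and was not called. DLX3 and DLX4 had risen without FGF against bFGF (DLX3 at least 9.74-fold and DLX4 by 2.88 on the log2 scale) and differed by -0.03 ± 0.75 and 0.24 ± 0.61 after differentiation, neither called. MSX2 differed by 1.09 ± 0.49 (adjusted p = 0.15), and by 1.47 without experiment 1 (adjusted p = 0.034).

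BMP genes, whose products send ectoderm towards epidermis, had nearly all risen without FGF and most were not called between no FGF and differentiation. Of 11 ligands and targets, 10 were called higher without FGF than with bFGF and 2 were called higher in the differentiated culture than without FGF. BMP4 had -3.76, -3.01 and -3.77 with bFGF, 0.59, -0.30 and -0.73 without FGF and 0.72 and 0.51 when differentiated. ID4, which SMADs induce, had -2.78, -2.26 and -2.91 with bFGF, 2.82, 1.78 and 2.07 without FGF and 2.51 and 2.59 when differentiated. For both genes the differentiated arrays lay among or next to the no FGF cultures and above every bFGF culture, and neither main difference was called (0.76 ± 0.45 and 0.33 ± 0.40). The genes called higher were the ligand BMP5 (3.36 ± 0.71, adjusted p = 0.0068) and BAMBI, a decoy receptor (2.49 ± 0.59, adjusted p = 0.013). BAMBI was 4.30, 2.43 and 2.36 in the no FGF cultures, with experiment 1 highest, and 3.12 was the difference without it.

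Amnion and trophoblast genes were called higher in the differentiated culture for 12 of 16 genes (median difference 3.92). CGA, the alpha chain of the glycoprotein hormones, was not well above background without FGF and had 4.19 and 3.54 on the differentiated arrays, at least 641-fold higher (adjusted p = 2.7e-06). The amnion marker VTCN1 had -3.39, -3.101 and -3.36 without FGF and 3.88 and 3.87 when differentiated, and GABRP, another, had -4.49, -3.58 and -4.19 and 3.83 and 3.77. For both, the differentiated arrays lay above every no FGF and bFGF culture. A second VTCN1 probe differed by 0.88 and was not called.

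Of this list 6 genes, most of them transcription factors, were called higher without FGF than with bFGF. GATA3 had -6.80, -6.68 and -7.14 with bFGF, where no array was well above background, -0.43, -2.48 and -1.47 without FGF and 0.79 and 0.73 when differentiated. Experiment 1 was the highest no FGF culture, and the main difference was 2.22 ± 0.67 (adjusted p = 0.039, but 0.068 without experiment 2, 0.070 without experiment 3 and 0.057 with the experiment as a block). TFAP2A, which specifies surface ectoderm and crest, differed by 1.91 ± 0.90 (adjusted p = 0.17), and by 2.73 without experiment 1 (adjusted p = 0.014). Its relative TFAP2B had no array well above background without FGF and was at least 118-fold higher when differentiated. HAND1 (7.08 ± 0.61) and CDX2 (5.03 ± 0.65) were well above background on 1 of 6 no FGF arrays each and on both differentiated arrays. The chorionic gonadotropin beta probe, whose gene copies CGB3 and CGB5 are nearly identical and cannot be separated, differed by 4.82 ± 0.41. CYP19A1, the aromatase of placenta, was at least 8.92-fold higher, though its other 2 probes were not called.

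Epidermal genes, 7 keratins and TP63, were called higher for all 8, in small and large steps. KRT5, KRT14 and KRT17, of basal epidermis, were not well above background on any no FGF array. On the differentiated arrays KRT5 had 1.33 and 1.67, KRT14 had 0.40 and 0.62 and KRT17 had 0.30 and 0.76. They were at least 125-fold, 54.0-fold and 56.1-fold higher. The simple epithelial keratins KRT8, KRT18 and KRT19 were already high without FGF and differed by only 1.83 ± 0.25, 1.54 ± 0.27 and 1.52 ± 0.30. TP63, the master regulator of stratified epithelium, was well above background on 1 differentiated array (1.55 ± 0.41, adjusted p = 0.020, and 0.051 without experiment 2). The median difference of the list was 1.69.

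Neuroectoderm factors went both ways, with 5 of 16 called higher and 4 lower against no FGF, and 10 called higher without FGF than with bFGF. Without experiment 1, 5 were called higher and 5 lower against no FGF. SIX3 and RAX, of the anterior neural plate and eye field, were highest without FGF. SIX3 had -3.30, -3.95 and -4.40 with bFGF, 0.49, 0.60 and 0.49 without FGF and -2.94 and -3.24 when differentiated. RAX had 1.86, 3.78 and 3.82 without FGF and -0.35 and -0.62 when differentiated, with experiment 1 lowest but still above both differentiated arrays. The differences were -3.62 ± 0.49 and -3.63 ± 0.64 (adjusted p = 0.00040 and 0.0024). RAX lost its call when only the 2 groups compared were fitted. OTX2, of forebrain and midbrain, differed by -1.57 ± 0.43 (adjusted p = 0.025) and lost its call without experiment 1 (adjusted p = 0.058) and with the experiment as a block (adjusted p = 0.058). POU3F1, a POU factor of early neuroectoderm, differed by -2.91 ± 0.31 (adjusted p = 8.5e-05).

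The 5 genes called higher began with HES5. HES5, a Notch target that keeps neural progenitors dividing, had -3.72, -3.24 and -2.54 without FGF and 5.19 and 5.34 when differentiated, 345-fold higher (adjusted p = 6.4e-07). SOX1, which marks committed neural cells, was not well above background on any no FGF array and was at least 19.7-fold higher, with -1.19 and -1.15 on the differentiated arrays. Neither gene overlapped between groups. EMX2, of dorsal forebrain, had -5.53, -1.63 and -2.67 without FGF and 3.91 and 3.93 when differentiated, and its difference of 7.19 ± 1.10 was 6.06 without experiment 1, still called. POU3F2, a later neural POU factor, differed by 4.10 ± 0.57. LMX1A, of the roof plate and midbrain, differed by 1.88 ± 0.55 (adjusted p = 0.034) and lost its call without any 1 of the no FGF cultures (adjusted p = 0.051, 0.070 and 0.064 without experiments 1, 2 and 3) or with the experiment as a block (adjusted p = 0.069).

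PAX6, the paired-box gene of eye and forebrain, had -5.09, -6.13 and -5.53 with bFGF, where no array was well above background, -2.09, 0.84 and 0.80 without FGF and 2.08 and 1.75 when differentiated. The differentiated arrays lay above all 3 no FGF cultures, 2 of which were close to them and 1 far below. PAX6 was at least 37.7-fold higher without FGF than with bFGF (adjusted p = 0.00027), and its further difference of 2.06 ± 0.92 was not called (adjusted p = 0.14). Without experiment 1 it was 1.09 (adjusted p = 0.13). Of its other 2 probes, which differed by 2.32 and 3.04, 1 was called. LHX2, ZIC1 and SIX6 were also lowest in experiment 1 among the no FGF cultures. LHX2 differed by 0.58 ± 1.16 and by -0.68 without that culture, neither called. SIX6 differed by -1.73 ± 1.54, not called, and by -3.21 without that culture (adjusted p = 0.048). ZIC1 differed by 2.82 ± 0.98 (adjusted p = 0.066) and passed without any 1 of the no FGF cultures (adjusted p = 0.043, 0.039 and 0.049).

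**Figure D3:**
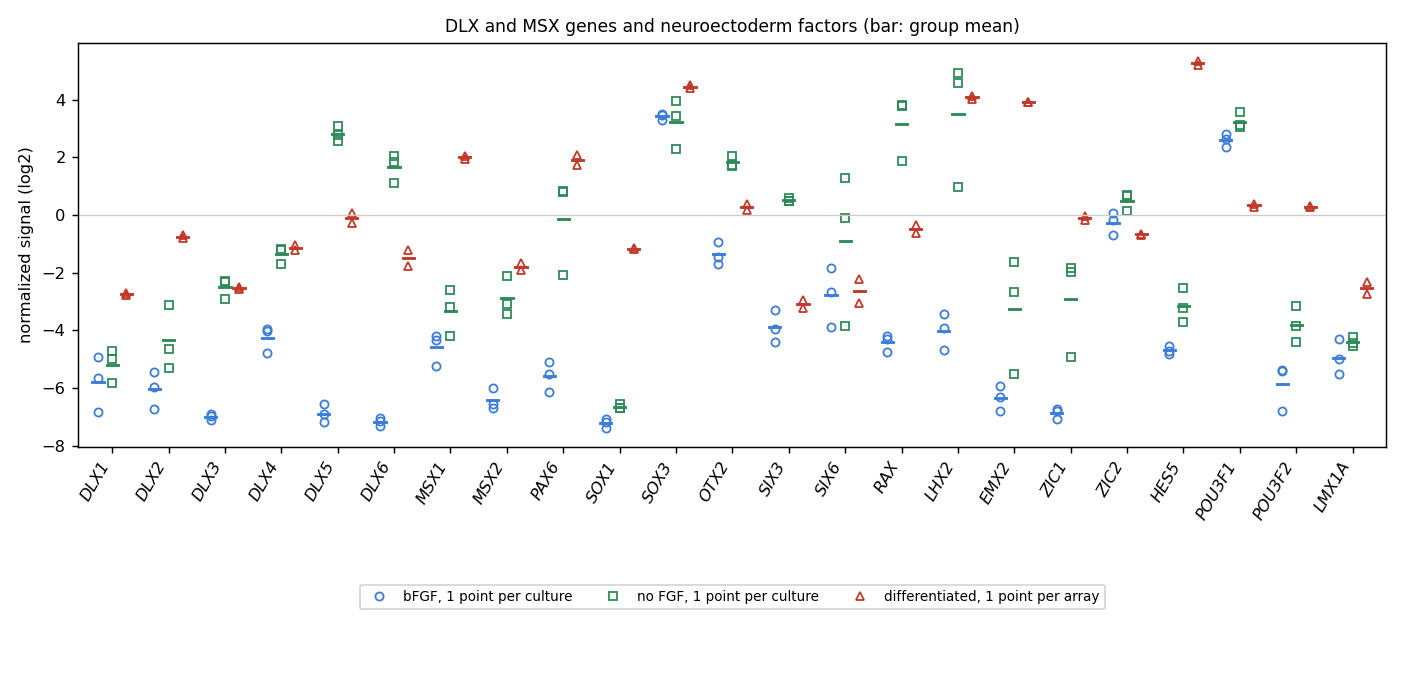
Normalized signal (log2) of 8 DLX and MSX and 15 neuroectoderm genes, with 1 point per culture for bFGF (circles) and no FGF (squares), 1 point per array for the differentiated culture (triangles), and bars at the group means. DLX5, DLX6, SIX3 and RAX are highest without FGF, HES5, EMX2 and MSX1 are highest when differentiated, and PAX6 and LHX2 have 1 low no FGF culture.

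Neuronal genes were called higher for 9 of 13, with a median difference of 2.13. NEUROD1 and NEUROG2, the bHLH factors that start neuronal differentiation, were not well above background without FGF. On the differentiated arrays NEUROD1 had 0.12 and 0.33 and NEUROG2 had -0.90 and -1.14, at least 51.9-fold and 21.8-fold higher. STMN2, a microtubule regulator of growing axons, had -1.09, -0.89 and -1.06 without FGF and 4.06 and 4.20 when differentiated (5.14 ± 0.49, adjusted p = 4.2e-05). DCX, of migrating young neurons, differed by 3.17 ± 0.55 and ELAVL4 by 2.93 ± 0.32. TUBB3, the neuronal tubulin, and MAP2 were higher without FGF than with bFGF by 1.73 and 2.65, and differed by -0.38 ± 0.35 and 0.80 ± 0.43 after differentiation, neither called. With the experiment as a block MAP2 differed by 1.16 and was called (adjusted p = 0.030). SYT4, a synaptotagmin, was 0.01, -0.11 and -0.29 with bFGF, not well above background without FGF, and 0.11 and 0.24 when differentiated. Its differentiated arrays lay just above the range of the bFGF cultures.

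Neural crest genes were called higher for 4 of 10, with a median difference of 2.11. SNAI2, a repressor of epithelial genes in migrating crest, was at least 37.8-fold higher (adjusted p = 9.9e-06), and SOX10, of crest glia and pigment cells, differed by 2.43 ± 0.34 (adjusted p = 0.00053). PAX3 differed by 2.48 ± 0.77 (adjusted p = 0.042, and 0.068 without experiment 3), and TFAP2B was given above. TWIST1, which has a value on only 1 differentiated array, differed by 3.42 ± 1.25 and was not called (adjusted p = 0.077, but 0.042 without experiment 3). NGFR and PAX7 had values of -0.93 ± 0.38 and -0.48 ± 0.37, not called. Of 6 pigment cell genes, 4 were called higher. The melanin enzymes TYR and TYRP1 were not well above background on any no FGF array and were at least 18.7-fold and 107.4-fold higher. DCT, the third enzyme, had -3.71, -3.28 and -3.44 without FGF and 2.17 and 2.29 when differentiated, and MITF, the factor that controls all 3 enzymes, differed by 6.22 ± 0.65 (adjusted p = 8.0e-05). RPE65, of retinal pigment epithelium, was not well above background on any of these arrays.

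Secreted proteins of the yolk sac and liver were high in the differentiated culture. Of 16 genes for proteins that yolk sac and liver secrete, 15 were called higher (median difference 4.71), against 1 called higher without FGF than with bFGF. TTR, the thyroxine carrier transthyretin, had -6.27, -6.36 and -6.43 without FGF, where no array was well above background, and 5.40 and 4.89 on the differentiated arrays. It was at least 1567-fold higher (adjusted p = 3.6e-07). AFP, the fetal counterpart of albumin, was already well above background without FGF with -1.11, -0.03 and -1.03, and had 4.07 and 3.51 when differentiated (4.51 ± 0.64, adjusted p = 0.00058). ALB, albumin itself, reached only -2.69 and -2.88 and was at least 6.44-fold higher.

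The apolipoproteins APOA1, APOA2 and APOA4 differed by 5.33 ± 0.30, 7.69 ± 0.35 and 6.63 ± 0.44. For APOA2 and APOA4 no array was well above background without FGF, which makes the differences at least 121-fold and 56.95-fold. The fibrinogen chains FGB and FGG, which assemble into one clotting protein, were at least 16.5-fold and 35.7-fold higher. The third chain, FGA, differed by 2.23 ± 1.22, its 2 differentiated arrays had -4.57 and -2.08, and it was the 1 gene of the list not called, although its other 2 probes were. RBP4, the retinol carrier, and SERPINA1, an inhibitor of elastase, differed by 5.87 ± 0.41 and 2.53 ± 0.32.

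Endoderm and primitive streak factors were called higher for 9 of 13, but 9 of the 13 had no array well above background without FGF. SOX17, which specifies definitive and extra-embryonic endoderm, had -0.04 and -0.38 on the differentiated arrays and was at least 38.3-fold higher (adjusted p = 0.00013). GATA6 had -5.25, -6.31 and -6.32 without FGF and 0.76 and 0.60 when differentiated (6.64 ± 0.59), and FOXA2 and FOXA1, pioneer factors of gut and liver, were at least 12.1-fold and 6.04-fold higher. HNF4A, the hepatocyte nuclear receptor, was not well above background on any no FGF or differentiated array. GATA4 differed by 0.36 ± 0.49 and was not called. EOMES, of the streak, was at least 16.3-fold higher, while TBXT, MIXL1 and GSC were dim, TBXT with -3.11 and -5.64, MIXL1 with -3.94 and -5.56 and GSC with -3.55 and -4.60 on the differentiated arrays. TBXT and MIXL1 were each well above background on 1 of these arrays. All 3 were called higher, but MIXL1 lost its call without experiment 1 or 3 (adjusted p = 0.085 and 0.089) and GSC without experiment 2 or 3 (adjusted p = 0.068 and 0.076). MIXL1 was not called with the experiment as a block either (adjusted p = 0.060). CXCR4, the chemokine receptor of endoderm and of many other cells, rose at both steps, by 3.03 and 2.61 ± 0.54.

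Collagens and matrix genes were called higher for all 14 genes, with a median difference of 4.43. DCN and LUM, small proteoglycans that coat collagen fibrils, were not well above background on any no FGF array. DCN had 5.21 and 5.41 and LUM had 3.86 and 3.90 on the differentiated arrays. They were at least 1754-fold and 654-fold higher (adjusted p = 1.9e-06 and 9.6e-07). Fibrillar collagen genes differed from each other in where they began. COL3A1 had -6.16, -6.38 and -5.71 without FGF, well above background on 1 of 6 arrays, and had 3.096 and 3.04 when differentiated. COL1A1 began at 1.32, 2.39 and 0.95 and reached 6.05 and 6.15 (4.55 ± 0.57). The basement membrane collagens COL4A1 and COL4A2, which undifferentiated cells also make, differed by only 1.33 ± 0.38 and 1.74 ± 0.32 (adjusted p = 0.030 and 0.0032), and COL4A1 lost its call without experiment 1 (adjusted p = 0.068). COL6A1 and SPARC were lower without FGF than with bFGF, by 1.41 and 1.31. They were higher when differentiated than without FGF, by 3.03 ± 0.35 and 3.76 ± 0.33.

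Of 9 genes of the cadherin switch, by which epithelial cells become mesenchymal, 3 were called higher (VIM, ZEB1 and SNAI2) and 0 lower. VIM, the intermediate filament of mesenchyme, differed by 2.57 ± 0.44 and ZEB1, a repressor of E-cadherin, by 4.75 ± 0.72 (adjusted p = 0.0019 and 0.00087). The E-cadherin gene CDH1 had 3.71, 3.09 and 3.22 without FGF and 2.79 and 2.87 when differentiated, and the epithelial adhesion gene EPCAM had 4.35, 4.26 and 3.84 and 3.44 and 3.34. The differentiated arrays lay below every no FGF culture for both, with differences of -0.51 ± 0.29 and -0.76 ± 0.30, but neither was called (adjusted p = 0.25 and 0.100). N-cadherin, CDH2, had risen by 2.17 without FGF against bFGF and then differed by 0.35 ± 0.40, not called.

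Muscle genes rose in part. Of 14 cardiac genes 8 were called higher (median 1.92). The atrial light chain MYL7 had -2.08, -0.83 and -1.63 without FGF and 1.604 and 1.34 when differentiated (2.98 ± 0.50, adjusted p = 0.0018). TNNT2, cardiac troponin T, had -0.41, -0.10 and -0.48 with bFGF, -2.93, -2.25 and -3.76 without FGF and -0.11 and -0.40 when differentiated. It was called higher than without FGF (2.73 ± 0.47), but its differentiated arrays were at the level of the bFGF cultures. HAND2, a factor of heart, limb and sympathetic neurons, was at least 30.0-fold higher, and the alpha myosin gene MYH6 at least 5.53-fold. ACTC1, the cardiac actin, and NPPA, the atrial peptide, were not well above background on any no FGF or differentiated array. The NKX2-5 probe was 6.42, 6.63 and 6.38 without FGF, 6.19 and 6.18 when differentiated and 6.71, 6.91 and 6.39 with bFGF, not called in either contrast. TTN, the titin gene, fell by 6.34 without FGF against bFGF and then differed by 3.39 ± 0.34, and its other 2 probes were not called.

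Of 10 smooth muscle and mesenchyme genes, 5 were called higher and 1 lower. ACTA2, smooth muscle actin, had -1.09, 0.86 and 0.76 without FGF, with experiment 1 lowest, and 3.22 and 3.33 when differentiated (3.09 ± 0.63, adjusted p = 0.0052). The PDGF receptor genes PDGFRA and PDGFRB, of mesenchyme and pericytes, differed by 2.45 ± 0.45 and 1.81 ± 0.30, and DES, desmin, by 2.16 ± 0.27. MYH11, the smooth muscle myosin, was the gene called lower (-1.53 ± 0.32, adjusted p = 0.0063). Endothelial and blood genes did not follow, with 1 of 11 called higher and 2 lower. KDR, a VEGF receptor that undifferentiated cells carry too, had 0.95, 0.91 and 1.26 with bFGF, -3.31, -3.18 and -2.90 without FGF and -0.76 and -1.12 when differentiated. Its rise from no FGF (2.19 ± 0.33) did not reach the bFGF level. TEK, the angiopoietin receptor, and PTPRC, the leukocyte antigen CD45, were the genes called lower (-2.15 ± 0.24 and -1.22 ± 0.38, adjusted p = 0.00013 and 0.042). PTPRC lost its call without experiment 1 or 2 (adjusted p = 0.087 and 0.055). PECAM1, of endothelial junctions, differed by 1.18 ± 0.83 and HBE1, embryonic globin, by 1.32 ± 0.75, neither called.

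**Figure D4:**
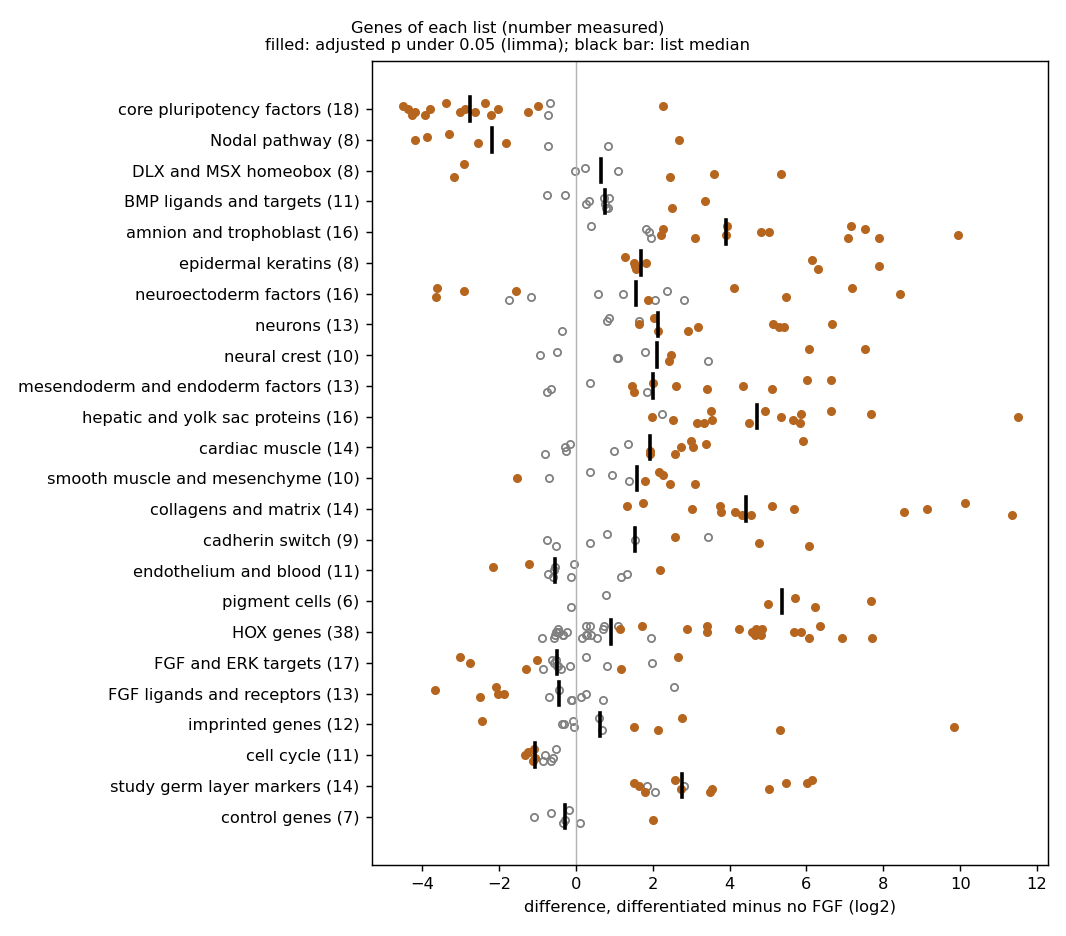
Difference between the differentiated culture and the no FGF cultures (log2) on the horizontal axis, with 1 point per gene in each list, filled where called and open where not, and a black bar at the list median. The medians of the pluripotency (-2.77) and Nodal (-2.18) lists lie left of 0, and those of the pigment (5.35), yolk sac and liver (4.71), matrix (4.43) and amnion (3.92) lists lie furthest right.

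HOX genes, which assign position along the body axis, were mostly dim without FGF, where 30 of 38 were well above background on no array, and 0 of 38 were called by limma in the contrast with bFGF (1 with the experiment as a block, HOXD9). After differentiation 17 of 38 were called higher and 0 lower. HOXB6 had -6.43, -6.58 and -6.42 without FGF, with no array well above background, and 1.36 and 1.07 when differentiated, at least 103-fold higher (adjusted p = 5.1e-06). HOXC4 had 0.41 and 0.36 and HOXB5 had 0.04 and -0.14 on the differentiated arrays, at least 57.9-fold and 42.8-fold higher. By paralog group, which runs from head to tail, 16 of 26 genes of groups 1 to 9 were called, with a median difference of 3.41. In groups 10 to 13, 1 of 12 was called, with a median of -0.09. It was HOXA11, which was well above background on none of these arrays and lost its call without experiment 2 or 3 (adjusted p = 0.054 and 0.057). HOXA10, of the same groups, was bright in the differentiated culture (1.47, well above background on both arrays). It differed from no FGF by only -0.45 and was not called. By cluster, 5 of 10 genes were called in A, 7 of 10 in B, 4 of 9 in C and 1 of 9 in D, where it was HOXD3 (at least 45.4-fold). HOXA9 differed by 0.30 ± 0.33 on its brighter probe and by 3.09 on its other probe, which was called. The 2 differentiated arrays differed for HOXB8, with -2.71 and -1.11, and for HOXB9, with -2.17 and -1.26. The sets of paralog groups were not tested against each other.

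**Figure D5:**
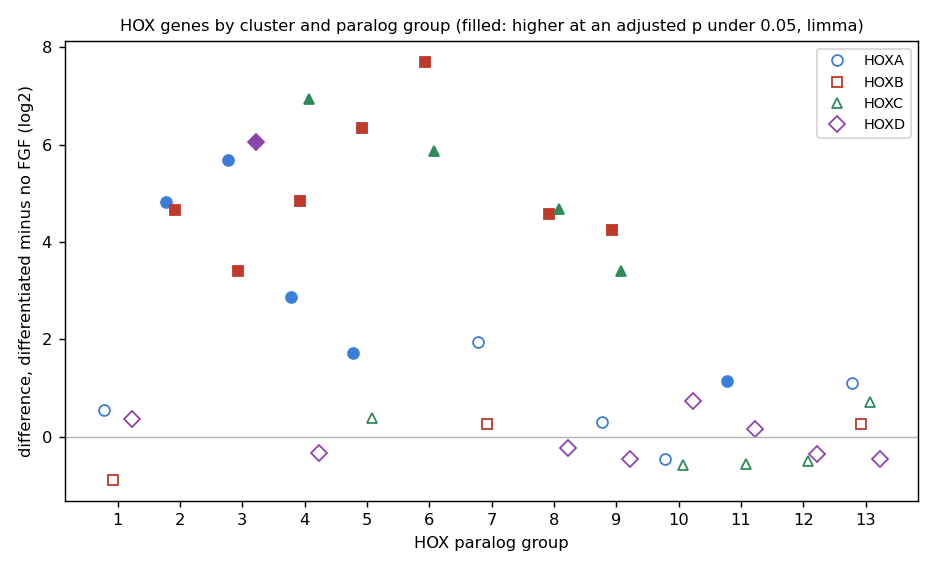
Difference between the differentiated culture and the no FGF cultures (log2) on the vertical axis for 38 HOX genes by paralog group on the horizontal axis, with 1 symbol per cluster, filled where called. Groups 1 to 9 hold 16 of the 17 called genes, and the 12 genes of groups 10 to 13 lie between -0.57 and 1.14.

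FGF signalling genes that were lower without FGF than with bFGF went different ways in the differentiated culture. Of 17 feedback inhibitors and nuclear targets of ERK signalling, 7 had been called lower without FGF than with bFGF. Against no FGF, 4 were called lower and 2 higher in the differentiated culture, and 3 and 1 with the experiment as a block. ETV4, an ETS factor that FGF induces, went down at both steps, with 1.19, 1.16 and 1.16 under bFGF, -0.71, 0.03 and -0.12 without FGF and -2.93 and -3.62 when differentiated. SPRY4, a feedback inhibitor, did so too, with differences of -2.40 and then -2.76 ± 0.48 (adjusted p = 0.0022), though its second probe differed by -0.42 and was not called. IER3, an early response gene, was instead lowest without FGF, with 1.79, 1.45 and 1.72 under bFGF, -0.54, 0.28 and -1.06 without FGF and 2.09 and 2.32 when differentiated (2.65 ± 0.47, adjusted p = 0.0024, limma). DUSP6, the ERK phosphatase, had 0.92, 3.72 and 3.60 without FGF and 2.12 and 2.21 when differentiated, inside the range of the no FGF cultures. It was called lower, with a difference of -1.496, without experiment 1 (adjusted p = 0.011). MYC and DUSP5 had fallen by 2.02 and 1.90 without FGF and differed by -0.62 ± 0.41 and -0.15 ± 0.38 after differentiation, neither called.

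Of 13 FGF ligand and receptor genes, 5 were called lower and 0 higher. FGF2 itself, which ESCs make, had 0.17, 0.33 and 0.13 with bFGF, 0.05, -0.11 and 0.03 without FGF and -2.57 and -2.46 when differentiated. It was not called between bFGF and no FGF (adjusted p = 0.41) and differed by -2.50 ± 0.23 after differentiation (adjusted p = 3.1e-05). The receptors FGFR1 and FGFR4 differed by -2.08 ± 0.38 and -2.02 ± 0.23, and FGFR2 and FGFR3 by -0.14 ± 0.30 and -0.70 ± 0.47, of which FGFR2 and FGFR3 were not called. FGF8, of the neural plate and streak, had -2.94, -0.90 and -0.95 without FGF and was not well above background on either differentiated array, at least 12.8-fold lower.

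Imprinted genes included a large rise. IGF2, the fetal growth factor, had -1.002, -0.68 and -1.24 without FGF, -1.48, -1.47 and -1.36 with bFGF and 8.88 and 8.82 when differentiated, 909.8-fold higher than without FGF (adjusted p = 2.8e-07). Its second probe differed by 6.76. H19, its neighbour in the same imprinted domain, differed by 5.30 ± 0.45 and CDKN1C, a growth inhibitor, by 2.76 ± 0.35. SNRPN, of the Prader-Willi domain, was lower (-2.45 ± 0.25, adjusted p = 6.0e-05). DLK1, a Notch-like inhibitor of differentiation, was -1.84, -2.20 and -1.91 with bFGF, 2.24, 4.14 and 3.79 without FGF and 3.13 and 3.02 when differentiated. It rose at the first step and differed by -0.31 ± 0.54 at the second, not called, and by -0.89 without experiment 1, the lowest no FGF culture (adjusted p = 0.046). MEG3 was not called on its brightest probe (-0.09 ± 0.20), and 3 of its 6 other probes were, the lowest at -3.46. Of 12 imprinted genes 5 were called higher and 1 lower.

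Some cell cycle genes were lower, by small amounts. Of 11 genes 5 were called lower and 0 higher, and the median difference was -1.07, with a range from -1.32 to -0.52. The kinetochore kinase gene BUB1 had 2.77, 2.26 and 2.59 without FGF and 1.19 and 1.26 when differentiated (-1.32 ± 0.25, adjusted p = 0.0035), and MKI67, the Ki-67 antigen, differed by -0.66 ± 0.35 and was not called. None of the 11 was called without FGF against bFGF. The count fell to 3 without experiment 1 or experiment 3. Of 7 widely used reference genes, B2M, the light chain of MHC class I, was called higher (2.00 ± 0.31, adjusted p = 0.00099). GAPDH, TBP, HPRT1, PPIA, RPLP0 and YWHAZ differed by -1.08 to 0.10 and were not called.

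A further list of 14 differentiation markers overlaps those above, and 11 of its genes were called higher. The study showed this list for these arrays and had taken it from earlier work. PPARG, the adipocyte nuclear receptor, was at least 7.08-fold higher. TH, tyrosine hydroxylase, differed by 1.63 ± 0.20 (adjusted p = 0.00022), but its second probe differed by -0.06 and was not called.

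The called genes with the largest fitted differences, for probes that exceeded background on all arrays of whichever group was higher, fell partly outside these lists. Among the rises these were TTR, DCN, IGFBP7, LUM, CGA, IGF2, MGP, COL3A1, NR2F1, HSD17B2, S100A9 and MIR9-2HG. For 9 of the 12 no array was well above background without FGF, so that their folds are bounds with no order. The bounds of MGP, HSD17B2, S100A9 and MIR9-2HG lie below the measured fold of HES5 (345), which this rule leaves out. IGFBP7, a secreted binding protein of insulin-like growth factors, was at least 1155-fold higher, with 4.92 and 5.15 on the differentiated arrays. MGP, a matrix inhibitor of calcification, was at least 323-fold higher, and HSD17B2, which inactivates sex steroids, at least 313-fold. S100A9, a calcium-binding protein of myeloid cells and stratified epithelium, was at least 292-fold higher, and MIR9-2HG, the host transcript of a neural miRNA, at least 276-fold. NR2F1, an orphan receptor of neural and mesenchymal cells, had -6.35, -2.53 and -4.38 without FGF and 4.70 and 4.70 when differentiated (9.12 ± 1.02). Its no FGF cultures were spread widely, with experiment 1 lowest.

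By the same rule the 12 falls were TIMP4, LCK, HESX1, JAKMIP2-AS1, FZD5, HES3, KCNG3, GARIN1B, IDO1, OR1D2, ZSCAN10 and CNMD. TIMP4, LCK and HES3 were not well above background on either differentiated array and have no place in an order. Several of the 12 stood above bFGF without FGF and below it when differentiated. HESX1, a homeobox repressor of the anterior neural plate and pituitary, had -1.96, -1.71 and -1.97 with bFGF, 3.47, 3.53 and 3.63 without FGF and -3.05 and -3.14 when differentiated. FZD5, a Wnt receptor of the early eye field, had 0.83, 0.94 and 0.93 with bFGF, 4.19, 4.37 and 4.42 without FGF and -1.95 and -2.29 when differentiated. For both genes the no FGF cultures lay above, and the differentiated arrays below, all 3 bFGF cultures. HES3, a Notch pathway repressor of early neuroepithelium, and TIMP4, an inhibitor of matrix metalloproteinases, had the same order and were at least 57.2-fold and 109-fold lower when differentiated.

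LCK, a tyrosine kinase known from T cells, and ZSCAN10, a zinc finger factor of the pluripotency network, instead went down at both steps. LCK had 2.31, 2.38 and 2.24 with bFGF and 0.61, 0.56 and 0.51 without FGF, and was at least 93.0-fold lower when differentiated. ZSCAN10 had 4.56, 4.82 and 4.75 with bFGF, 3.96, 3.73 and 3.94 without FGF and -1.02 and -1.86 when differentiated, and differed by -5.32 ± 0.27 at the second step (adjusted p = 9.8e-07). CNMD, chondromodulin, and OR1D2, an olfactory receptor gene, were not called between bFGF and no FGF (adjusted p = 0.39 and 0.32) and differed by -5.12 ± 0.41 and -5.34 ± 0.34 after differentiation. IDO1, which degrades tryptophan, was 1.37, 2.60 and 2.27 with bFGF, 1.40, -0.11 and 0.42 without FGF and -4.78 and -4.86 when differentiated. With 1 differentiated culture an exact permutation of the 4 cultures cannot pass 0.05, and all calls rest on the spread pooled over the fit.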

How the data were processed

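RNA of 27 cultures was hybridized to 54 1-colour Agilent arrays, 2 per culture. The authors extracted the spot intensity with Agilent Feature Extraction 10.7.3.1, which subtracts background, and deposited it both as scanner output and as a value table whose 54 columns were equal to it. The deposited yes/no marks of spots well above background were used as given. From each array's 62976 spots, 4259 control spots and 266 to 623 outlier spots were left out. Signals were floored at 1, log2 was taken, and the spots of a probe were averaged on the log2 scale. The array's 75th percentile was then subtracted, and the 2 arrays of a culture were averaged, for 42405 probes. Symbols came from RefSeq accessions for 25715 probes and from the study's supplementary tables for 1320, and 15370 had none (of 3719 probes named by both, 3693 were named alike). The study's supplementary tables gave names only, and none of their values was used.

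Differences were tested with limma 3.58.1 in R 4.3.3 (lmFit and eBayes over 13 H1 cultures in 5 groups, 8 residual degrees of freedom, Benjamini-Hochberg adjustment over all probes). The groups were the pre-cultures, bFGF, FGFC and no FGF cultures, 3 of each, and the differentiated culture. By the titles, the 4-day cultures of experiment 2 lie further in passage from their pre-culture than those of experiments 1 and 3. The passage label of experiment 3 differs from its titles, and the titles were used. The titles number 3 experiments, each with its own passage and pre-culture, and the study speaks of independent experiments. The p-values thus rest on the spread between experiments in the groups of 3 cultures. Arrays were averaged first, so the number of cultures limits the precision. The lone differentiated culture adds no spread of its own, and spread between differentiation experiments is not measured. Same-numbered cultures thus share an experiment, and they deviated together with correlations of -0.16 to 0.52 (median 0.19, 18 values). The fit has no term for it, and values with the experiment as a block are given where they change a call. The differentiated culture, titled experiment 1, entered that block as experiment 1, although nothing ties it to that passage. Each gene was described by its probe with the highest mean signal. Where a group had no array well above background, a fold is a bound: the mean of the brighter group against the mean, over arrays, of the higher of the lowest signal well above background and the probe's own. Genes named were those of 24 lists and the 12 called rises and 12 falls of largest fitted difference, by the rule given with them. The cultures, genes and lists were chosen with earlier results of these data known. The steps were tested on simulated data. Of changes planted in the differentiated culture, the fit called 2% at 1 log2 unit, 58% at 2, 90% at 3 and 96% at 4. Each size was planted in 50 probes among 42405, and the other probes were left without a change. The real contrast called 8587 probes, so its adjustment was less strict and these shares may understate its power. A gene that was not called may thus still differ by 2-fold or more. Tables and figures were made with Python 3.11.15, numpy 2.4.6, pandas 2.3.3 and matplotlib 3.10.9. Alternatives were another background correction (normexp), quantile normalization, a higher floor, a filter on dim probes, each array alone, only the groups compared, all cultures, the experiment or the slide as a block, and leaving out each no FGF culture. Some genes of the lists are counted but not reported singly here.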

Additional observations from a re-analysis of the deposited data

How the results depend on the processing

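Over 14 alternatives, the count of probes called between the differentiated and no FGF cultures ran from 5938 (only these 2 groups fitted) to 11044 (quantile normalization). The deposited value table and the fit over all cultures gave the same values by construction, the first because its columns equal the scanner signal and the second because the added cultures left no residual degrees of freedom. Normexp background correction lowered the count of 2-fold differences to 4560, and to 1704 between no FGF and bFGF. For no FGF against bFGF, 9750 probes were called with only these groups fitted, and 3217 to 4946 without 1 of the no FGF cultures. Of 280 list counts, 13 moved by over 1.5 times. With only the 2 groups fitted, the genes called fell to 3 lower of the Nodal pathway, 3 higher of smooth muscle, 1 lower of FGF and ERK targets, 3 lower of FGF ligands and receptors, 3 higher of imprinted genes and 3 lower of the cell cycle. Normexp gave 8 neuroectoderm genes higher and 8 cell cycle genes lower, the filter on dim probes 7 neural crest genes higher, quantile normalization 8 smooth muscle genes higher, and the first arrays alone 3 cell cycle genes lower. Leaving out 1 no FGF culture gave 3 to 4 cell cycle genes lower. Of the 187 named genes' values under the alternatives, 2494 kept their direction and call, 73 lost the call, 27 gained it and 14 reversed, all of the last uncalled: NODAL at -0.0046 and ACTC1 at 0.16 and RPE65 at 0.31 on the second arrays, ACTC1 at 0.12, FGFR2 at 0.045, RPE65 at 0.35 and RPLP0 at 0.25 under quantile normalization, GATA4 at -0.064 under normexp, and others on leaving out 1 no FGF culture, over which DLX3 ran from -0.23 to 0.084, FGFR2 from -0.28 to 0.12, LHX2 from -0.68 to 1.29, DLK1 from -0.89 to 0.062 and DUSP5 from -0.30 to 0.063. The median difference of all probes was -0.32, -0.16 after quantile normalization, -0.22 after normexp and -0.41 with the higher floor. With the experiment number as a replicate block, 9282 probes were called (4100 higher and 5182 lower) and 5750 between no FGF and bFGF. Under that block OTX2, GATA3, LMX1A and MIXL1 lost their calls (adjusted p = 0.058, 0.057, 0.069 and 0.060, limma) and DPPA2 and MAP2 gained one (adjusted p = 0.033 and 0.030), and no other call of a named gene changed between the differentiated and no FGF cultures. With only the 2 groups fitted, 24 of the 187 named genes lost the call and 1, NPPA, gained it. Those lost were RAX, DLX2, EMX2, DCX, PAX3, FOXD3, BAMBI, GATA3, LEFTY1, FOXH1, TBXT and MIXL1. The others lost were GSC, ACTA2, MYH11, PDGFRA, TNNT2, PTPRC, ZEB1, COL4A1, FGF8, SPRY4, IER3 and BUB1. The cause of these shifts was not tested. Probes near background give bounds only, and with 1 differentiated culture its own spread is not measured.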

Other observations

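The 2 arrays of the differentiated culture differed more for a few genes than the duplicates of any of the other 26 cultures. For VRTN the first array was above the second by 1.21 (log2), where the other cultures reached 0.32, for GDF3 by 2.22 against 0.19, and for TBXT by 2.52 against 1.17. The other POU5F1 probe differed by 1.64 against 0.28. DNMT3B differed by 0.18 against 0.13 and NANOG by 0.38 against 0.28, while DPPA4, SOX2 and LIN28A differed by -0.06, -0.11 and 0.20, within the range of the other cultures. These genes were chosen after their values were seen. Of 8 Nodal pathway genes 4 differed 2-fold or more between the arrays, of 13 endoderm and streak factors 4, of 16 yolk sac and liver genes 3 and of 38 HOX genes 5, but 0 of 14 matrix genes, 0 of 16 neuroectoderm factors and 0 of 8 epidermal genes. These lists hold dim genes too: of the 38 HOX genes, 19 were well above background on both arrays and 14 on neither. The list counts are thus not like the next one, which leaves dim probes out. Over all probes above background on both arrays, 379 of 27401 differed 2-fold or more, against 241, 482 and 181 for the no FGF cultures. The cause was not tested.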
